A study of Mus musculus with 5 samples.

Results

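Interleukin-7 and interleukin-15, their receptors and the related receptor for interleukin-2 were described in mouse hearts through 7 genes, the cytokine genes Il7 and Il15 and the receptor genes Il7r, Il15ra, Il2rb, Il2ra and Il2rg. The genes were chosen by symbol, and they make up 7 of the 31053 genes in the deposited table. Il7 signals through a receptor built from Il7r and the common gamma chain, which Il2rg encodes, and it is known as a survival factor for resting T cells and innate lymphoid cells. Il15 is held on the surface of the cell that makes it by Il15ra and is shown to lymphocytes that carry Il2rb and the common gamma chain, chiefly NK cells and CD8 T cells. Il2ra joins the same pair of chains to form the high-affinity receptor for interleukin-2, and it is known from regulatory T cells, group 2 innate lymphoid cells (ILC2) and recently activated lymphocytes.

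The hearts came from a mouse model of the heart inflammation that follows treatment with immune checkpoint inhibitors. All mice lacked Pdcd1, which encodes the inhibitory receptor PD-1. The control group was Ctla4+/+Pdcd1-/- (4 mice, libraries named replicates 1 and 2) and the disease group Ctla4+/-Pdcd1-/- (10 mice, replicates 3, 4 and 5), so that the groups differed in 1 copy of Ctla4, another inhibitory receptor of T cells. Digested hearts were pooled, nucleated cells that excluded DAPI were sorted, and each library was made with the 5′ single-cell chemistry of 10x Genomics. The sample labels write the second allele as Pdcd2-/- for replicates 2 and 4 and Pdcd3-/- for replicate 5, and they number the sorting dye from DRAQ5 to DRAQ9, whereas the design text of the series gives Pdcd1-/- and DRAQ5 throughout and was followed. Age, sex, strain and the mice in each library were not given in the sources used here. The libraries are the replicates, and p-values measure the spread between these libraries only.

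The deposited matrices held 24991704 to 55053988 UMIs (unique molecular identifiers, each standing for 1 captured RNA molecule) per library. After filters on mitochondrial RNA and predicted doublets, 35838 of 47319 barcodes were retained, 13921 in control and 21917 in disease libraries, with a median of 3317 to 4479 UMIs. Among the deposited barcodes any 2 libraries shared 86 to 161 sequences, and 1208 sequences were in more than 1 library. Classes were set by marker UMIs, and none of the 7 genes was a marker. A barcode needed at least 2 of the 6 markers of a class (3 for lymphatic endothelial and mature dendritic cells). It could hold no more than 1 marker of an unrelated class, or 2 where that class was lymphatic endothelial or mature dendritic. Related classes, such as T and NK cells or the myeloid classes, were told apart by precedence or by the larger number of markers. A total of 30735 barcodes met a gate and 5103 (14.2%) did not, 4058 of the latter carrying markers of at least 2 classes. The T cell content did not follow the genotype: T cells were 6.07 and 1.61% of retained control barcodes (replicates 1 and 2) and 2.13, 24.4 and 7.33% of retained disease barcodes (replicates 3, 4 and 5). Values of a group are given in this order of replicates throughout. CD8 T cells with at least 2 UMIs over the cell cycle genes were set apart as cycling. The naive or memory, effector and joint gates of CD8 T cells below leave them out. Non-cycling barcodes with at least 2 effector genes and fewer than 2 naive or memory genes made up 84.5% of all CD8 T cells of control replicate 1. That was close to the 85.2 and 81.3% of disease replicates 4 and 5, against 21.4% in control replicate 2 and 55.2% in disease replicate 3. Control replicate 1 thus stood with disease replicates 4 and 5, and each T cell result below rests on these libraries. Which part of either targeted gene is deleted was not given, so that their UMIs do not check the labels: Pdcd1 was counted in T cells of every library, with control levels of 610 and 75.3 CPM (UMIs of a gene per 1000000 UMIs of the class in a library) and disease levels of 282, 1064 and 826 CPM. Ctla4 stood at 442 and 83.3 CPM in the control and at 161, 638 and 538 CPM in the disease T cells.

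Promoter sequences are shown for the 3 receptor genes whose start regions held a match to 1 of 3 motifs, those of STAT factors, interferon regulatory factors and ETS factors. The windows run from 250 bases before to 50 bases after the annotated start, from RefSeq on GRCm38.p6, are written 5′ to 3′ on the strand of the gene, and capitals mark the matches. The promoter table used here held windows for 4 of the 7 genes. The motifs searched on both strands were TTCNNNGAA, the form bound by STAT factors, GAAANNGAA, a form of the site of interferon regulatory factors, and CCGGAAG, the core site of ETS factors, and they were found in 8.30, 8.56 and 8.86% of 32851 such windows. The Il7r window, chr15:9529827-9530126 on the minus strand, held 1 TTCNNNGAA match. Il15ra has an upstream start, chr2:11705043-11705342 on the plus strand, with 1 GAAANNGAA match on the opposite strand and 1 CCGGAAG match, and a second start, chr2:11705462-11705761, with 1 GAAANNGAA match. The Il2rg window, chrX:101268206-101268505 on the minus strand, held 1 CCGGAAG match. A match is a description of the letters and not a measured site.
Il7r: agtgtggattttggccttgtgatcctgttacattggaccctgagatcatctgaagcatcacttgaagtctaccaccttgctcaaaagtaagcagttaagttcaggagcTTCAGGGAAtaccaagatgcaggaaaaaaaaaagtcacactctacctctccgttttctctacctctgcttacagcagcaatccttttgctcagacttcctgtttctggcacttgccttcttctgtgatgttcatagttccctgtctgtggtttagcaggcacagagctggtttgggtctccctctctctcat
Il15ra, upstream start: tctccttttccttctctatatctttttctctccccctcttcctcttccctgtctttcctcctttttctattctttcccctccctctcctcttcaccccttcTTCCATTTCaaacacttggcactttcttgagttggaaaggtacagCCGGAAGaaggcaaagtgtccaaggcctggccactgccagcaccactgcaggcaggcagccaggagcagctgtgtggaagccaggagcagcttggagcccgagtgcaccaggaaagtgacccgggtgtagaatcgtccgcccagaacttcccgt
Il15ra, second start: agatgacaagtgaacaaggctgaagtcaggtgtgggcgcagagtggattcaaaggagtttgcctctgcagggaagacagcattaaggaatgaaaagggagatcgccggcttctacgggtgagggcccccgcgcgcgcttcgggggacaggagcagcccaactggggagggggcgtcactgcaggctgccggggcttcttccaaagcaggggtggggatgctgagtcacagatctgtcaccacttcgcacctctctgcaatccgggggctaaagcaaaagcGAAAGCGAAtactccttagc
Il2rg: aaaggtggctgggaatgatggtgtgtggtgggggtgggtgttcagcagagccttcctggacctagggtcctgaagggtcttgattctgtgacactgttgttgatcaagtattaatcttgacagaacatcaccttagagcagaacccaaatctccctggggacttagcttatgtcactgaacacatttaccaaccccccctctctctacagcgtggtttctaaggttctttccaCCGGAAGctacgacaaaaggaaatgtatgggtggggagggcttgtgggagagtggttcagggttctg

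Il7 was rare, and its highest level lay in lymphatic endothelial cells, the lining of the vessels that drain tissue fluid. Over all retained barcodes 271 Il7 UMIs were counted, of which 53 (19.6%) lay in only 70 lymphatic endothelial barcodes. The control levels there were 158 and 132 CPM and the disease levels 185, 161 and 249 CPM, from 7 to 21 UMIs a library. The Poisson intervals (95%, counting error only) overlapped between all 5 libraries, from 53.1 CPM at the lower end of control replicate 2 to 458 CPM at the upper end of disease replicate 5. Fibroblasts held the largest number of Il7 UMIs, 119 (43.9%), at a level of 1.5 to 3.18 CPM in 8900 barcodes. Blood endothelial cells held 57 (21%) at 1.18 to 1.96 CPM. The lymphatic level lay above the blood endothelial and fibroblast levels in each of the 5 libraries. No test of that difference is given, since Il7 did not pass the filter on low counts in the model of classes without lymphatic cells. At least 1 Il7 UMI was seen in 30 of the 70 lymphatic barcodes (42.9%), and after thinning each barcode to 1000 UMIs in 6.90 to 33.3% of them per library, against 0 to 0.379% of thinned T cells. Monocytes and macrophages carried 3 Il7 UMIs, T cells 5, and neutrophils, NK, mural, Schwann, dendritic and ILC2 barcodes none.

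No Il7 difference between the genotypes passed the test. In fibroblasts the level was 2.00 and 1.5 CPM in control and 2.29, 3.18 and 2.13 CPM in disease libraries, so that all disease values lay above both control values. The difference was 0.46 ± 0.33 on the log2 scale (adjusted p = 0.404 by edgeR's quasi-likelihood test with Benjamini-Hochberg adjustment), and it was 0.75, 0.27 and 0.24 without control replicate 1, control replicate 2 and disease replicate 4. In blood endothelial cells it was -0.26 ± 0.36 (adjusted p = 0.715 by the same edgeR test), with overlapping groups. In lymphatic endothelial cells Il7 did not pass the filter on low counts and was not tested, with group means of 145 ± 18.4 CPM (SD, n = 2) and 199 ± 45.6 CPM (SD, n = 3).

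**Figure D1:**
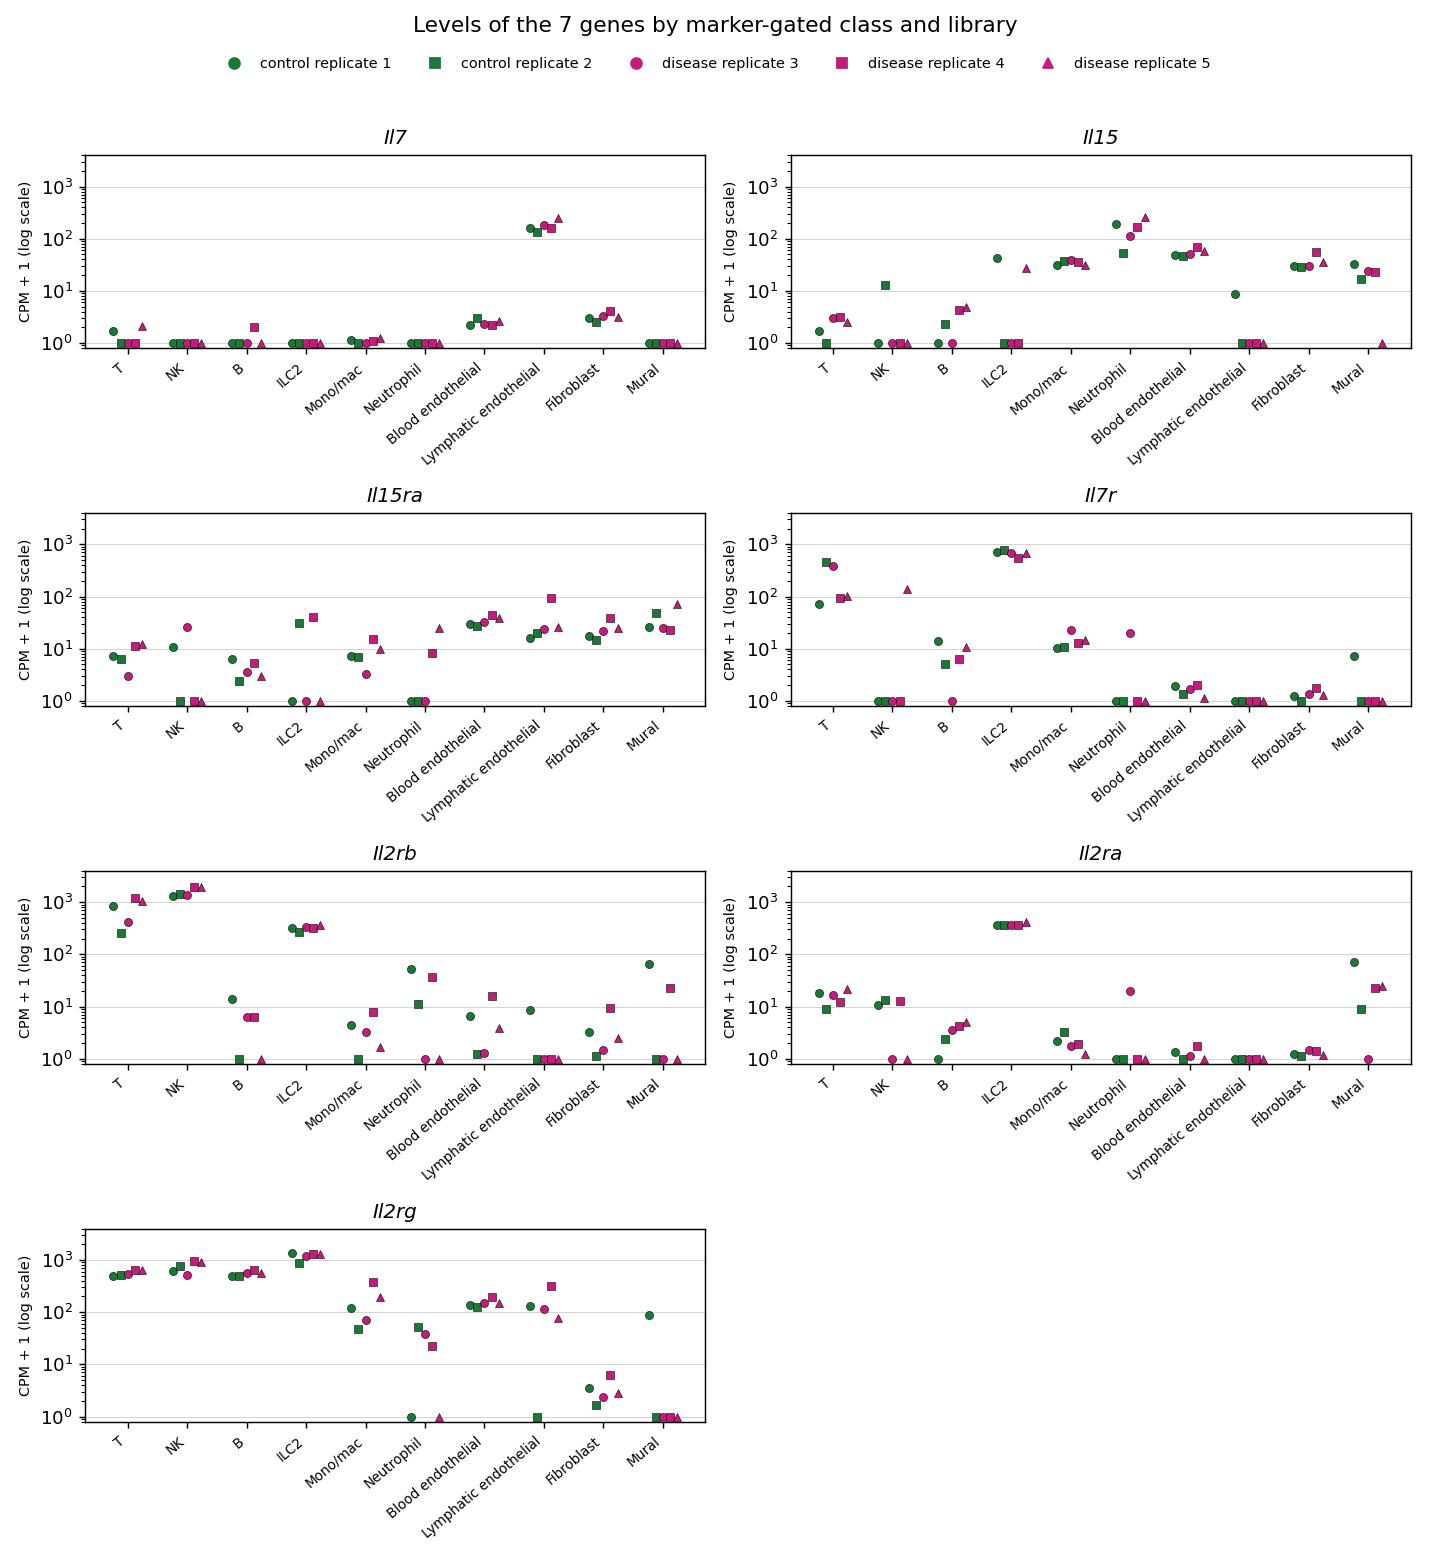
Level of each of the 7 genes (CPM + 1, log axis) in 10 marker-gated classes, 1 point per library, green for control and magenta for disease. Il7 reaches 132 to 249 CPM in lymphatic endothelial cells and no more than 3.18 CPM in fibroblasts, Il15 is highest in neutrophils, and Il2rg spans lymphoid, myeloid and endothelial classes.

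Il15 was carried by non-lymphoid cells of the heart, and blood endothelial cells and fibroblasts together held most of its UMIs. Blood endothelial cells held 34.5%, fibroblasts 31.9% and monocytes and macrophages 14.9% of 5863 UMIs. The highest level in CPM was in neutrophils, at 187 and 51.7 CPM in control and 112, 167 and 260 CPM in disease libraries, from only 5 to 23 UMIs a library. Blood endothelial cells stood at 46.8 and 44.8 CPM in control and 50.2, 69.1 and 57.8 CPM in disease libraries. Fibroblasts stood at 29.2 and 27.6 CPM in control and 29.6, 55.3 and 34.3 CPM in disease libraries. In both stromal classes the 3 disease libraries lay above the 2 control libraries, disease replicate 4 the highest and disease replicate 3 close to control. Monocytes and macrophages ranged from 30.1 to 37.5 CPM with no separation of the groups. T cells were at 0 to 2.19 CPM, B cells at 0 to 3.97 CPM, and lymphatic endothelial cells, the highest Il7 class, gave 1 Il15 UMI in all.

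In order of level, neutrophils exceeded blood endothelial cells by 1.58 ± 0.26 on the log2 scale (adjusted p = 4.1e-06 by edgeR's quasi-likelihood test with Benjamini-Hochberg adjustment in the model of 6 classes with at least 20 barcodes in every library). Blood endothelial cells exceeded fibroblasts by 0.50 ± 0.12 (adjusted p = 0.00052 by the same edgeR test). Monocytes and macrophages were not separated from either neighbour in that order: they differed from blood endothelial cells by -0.25 ± 0.13 (adjusted p = 0.088 by edgeR) and from fibroblasts by 0.25 ± 0.13 (adjusted p = 0.085). T cells differed from monocytes and macrophages by -4.43 ± 0.26 (adjusted p = 1.6e-17 by edgeR). Over the 15 contrasts of this model 60 of 90 member values passed. The share of all 12499 genes that passed was 34.7, 65.2, 42.5, 71.8 and 75.4% for T cells against B cells, monocytes and macrophages, neutrophils, blood endothelial cells and fibroblasts. B cells against the last 4 of these gave 52.7, 34.2, 60.4 and 67.1%. Monocytes and macrophages gave 35, 69.6 and 70.5% against neutrophils, blood endothelial cells and fibroblasts. Neutrophils gave 46.1% against blood endothelial cells and 49.3% against fibroblasts, and the 2 stromal classes gave 65.8% against each other.

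Il15ra, the chain that carries Il15 to the cell surface, was higher in stromal classes than in lymphocytes or in monocytes and macrophages. The highest pooled level of any class was that of 23 mature dendritic barcodes, 138 CPM (95% Poisson interval 97.9 to 188, counting error only). Mural cells followed at a pooled 39.4 CPM (23.3 to 62.2) from 18 UMIs. Blood endothelial cells stood at 28.3 and 26.2 CPM in control and 31.0, 43.2 and 38.3 CPM in disease libraries. Fibroblasts stood at 16.7 and 13.9 CPM in control and 21, 37.9 and 24.4 CPM in disease libraries. All disease values of both classes were above all control values, with the same order of libraries as for Il15. Monocytes and macrophages were at 6.34 and 5.82 CPM in control and at 2.21, 14.1 and 8.80 CPM in disease libraries, which lay on both sides of control. Blood endothelial cells exceeded fibroblasts by 0.48 ± 0.13 on the log2 scale (adjusted p = 0.0021 by edgeR's quasi-likelihood test with Benjamini-Hochberg adjustment). Monocytes and macrophages fell short of fibroblasts by a difference of -1.21 ± 0.17 (adjusted p = 5.2e-08 by edgeR). T cells, at 1.99 to 11.5 CPM, differed from monocytes and macrophages by -0.04 ± 0.23 (adjusted p = 0.90 by edgeR). A UMI of Il15 and a UMI of Il15ra were found together in 239 of 8900 fibroblasts (2.69%), 206 of 12619 blood endothelial cells (1.63%) and 60 of 3813 monocytes and macrophages (1.57%), shares that depend on the median depths of 5727.5, 2646 and 6174 UMIs.

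The difference between the genotypes did not pass the test for Il15 or Il15ra in any class. In fibroblasts Il15ra went from 15.3 ± 2.03 CPM (SD, n = 2) to 27.8 ± 8.96 CPM (SD, n = 3), a log2 difference of 0.80 ± 0.28 (adjusted p = 0.139 by edgeR's quasi-likelihood test with Benjamini-Hochberg adjustment). In blood endothelial cells the Il15ra difference was 0.38 ± 0.15 (adjusted p = 0.203 by edgeR). For Il15 the differences were 0.44 ± 0.28 in fibroblasts (adjusted p = 0.357 by edgeR), 0.29 ± 0.14 in blood endothelial cells (adjusted p = 0.289), 0.15 ± 0.18 in monocytes and macrophages (adjusted p = 0.681) and 0.62 ± 0.63 in neutrophils (adjusted p = 0.704). Without disease replicate 4 the Il15 difference was 0.11 in fibroblasts, 0.18 in blood endothelial cells and 0.06 in monocytes and macrophages, and the Il15ra difference of fibroblasts was 0.50. The Il15 difference of monocytes and macrophages also moved to 0.06 without control replicate 1 and to 0.24 without control replicate 2. In neutrophils the Il15 difference ran from -0.17 to 1.75 when 1 library was left out. After thinning to 1000 UMIs, Il15 was seen in 4.07% of blood endothelial cells in control and 5.81% in disease libraries as group means (p = 0.1 by a two-sided exact permutation test, the smallest p that 10 possible splits allow). In fibroblasts the Il15 shares were 2.28 and 3.86% (exact permutation p = 0.2), and in monocytes and macrophages 4.02 and 3.72% (p = 0.7), a difference opposite in sign to the fitted one. The Il15ra shares were 1.69 and 3.0% in fibroblasts (exact permutation p = 0.1), 2.54 and 3.78% in blood endothelial cells (p = 0.2) and 0.654 and 0.978% in monocytes and macrophages (p = 0.7). Adjusted over 14 shares, these p-values were 0.525 in the stromal classes and 0.7 in monocytes and macrophages. T cell markers were found in these stromal barcodes and were also highest in disease replicate 4, the 6 markers summing to 23.8 and 1.22 CPM in control and 3.04, 75.8 and 11.9 CPM in disease blood endothelial cells. Their part in the Il15 and Il15ra levels was not tested.

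**Figure D2:**
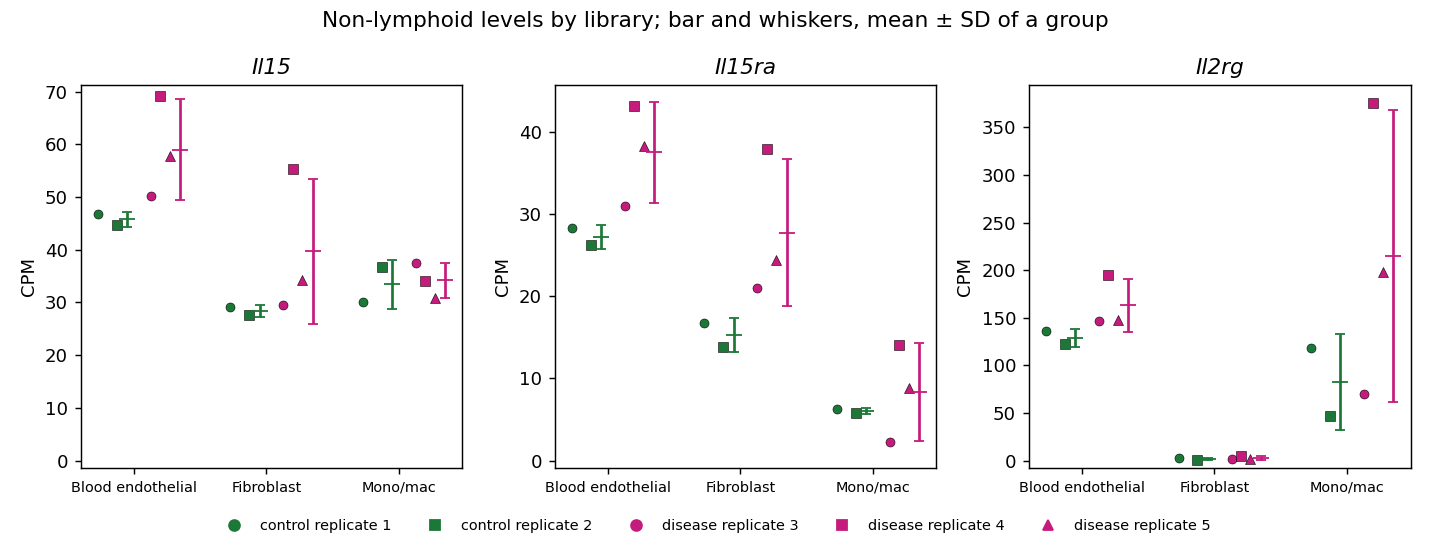
Levels (CPM, linear axis) of Il15, Il15ra and Il2rg in blood endothelial cells, fibroblasts, and monocytes and macrophages, 1 point per library, with the group mean and SD (n = 2 control, n = 3 disease) beside the points. The disease points of Il15 and Il15ra lie above the control points in both stromal classes, and the Il2rg values of monocytes and macrophages overlap between the groups.

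Il7r, the private chain of the interleukin-7 receptor, marked ILC2 and the naive or memory gate of CD8 T cells, and was low in effector CD8 T cells. ILC2 stood at 701 and 775 CPM in control and 681, 559 and 676 CPM in disease libraries, from 56 barcodes in all. T cells as a whole stood at 70.9 and 457 CPM in control and 378, 92.8 and 102 CPM in disease libraries, control replicate 2 and disease replicate 3 being the high ones. Those are the libraries with the lowest effector share among their CD8 T cells. CD8 T cells of the naive or memory gate (at least 2 genes of a panel that includes Tcf7, Lef1, Ccr7 and S1pr1, fewer than 2 effector genes) stood at 885 and 496 CPM in control and 706, 683 and 704 CPM in disease libraries. Effector CD8 T cells (at least 2 of Gzmb, Gzma, Gzmk, Prf1, Ccl5 and Nkg7, fewer than 2 naive or memory genes) stood at 17.8 and 0 CPM in control and 21.4, 16.5 and 14.4 CPM in disease libraries. The 0 rests on 9 barcodes and allows up to 102 CPM (3 counts, counting error only), and the 885 CPM of the naive or memory gate also rests on 9. The gates did not overlap in any library, and naive or memory CD8 T cells exceeded effector CD8 T cells by 5.73 ± 0.38 on the log2 scale (adjusted p = 7.3e-12 by edgeR's quasi-likelihood test with Benjamini-Hochberg adjustment, where 39.3% of 1851 genes passed). CD8 T cells that met both gates stood at 355 to 552 CPM.

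CD4 T cells held more Il7r than CD8 T cells, at 219 and 504 CPM in control and 434, 327 and 491 CPM in disease libraries. The CD8 level was 47.4 and 359 CPM in control and 287, 52.9 and 59.2 CPM in disease libraries, under the CD4 level in each of the 5. CD8 differed from CD4 T cells by -1.82 ± 0.33 on the log2 scale (adjusted p = 0.0021 by edgeR's quasi-likelihood test with Benjamini-Hochberg adjustment, 8.38% of 2982 genes passing). Il7r UMIs were absent from the NK cells of 4 libraries and present in disease replicate 5 alone, where 12 UMIs in 3 barcodes gave 136 CPM. Contrasts of NK cells, ILC2 and mural cells used the 11 classes with at least 5 barcodes in every library, a limit set after the barcodes had been counted, and 4813 genes. T cells exceeded NK cells by 3.02 ± 0.62 (adjusted p = 0.0003 by edgeR, 15.8% of genes passing), and without disease replicate 5 no Il7r UMI was left in NK cells and the fitted value was 11.93. ILC2 exceeded T cells by 1.69 ± 0.36 (adjusted p = 0.00032, 24% of genes passing). Among myeloid cells, monocytes and macrophages carried 9.18 and 9.85 CPM in control and 21.7, 12 and 13.8 CPM in disease libraries, above the blood endothelial level by 5.05 ± 0.45 (adjusted p = 1.5e-12 by edgeR) and with all disease values above control. A T panel UMI was found in 16.9% of the 142 macrophage barcodes with an Il7r UMI and in 9.04% of the other 3671, at median depths of 11502.5 and 6047 UMIs. By library these shares were 17.9 against 8.23% and 0 against 0% in control, and 6.25 against 0%, 25.8 against 19.1% and 4 against 3.4% in disease. The Il2rb level of these cells was multiplied by the ratio of Il7r to Il2rb in T cells of the same library. The product came to 3.24 and 0% of the macrophage Il7r level in control and 9.07, 4.37 and 0.489% in disease libraries. This takes the ratio as fixed, although Il7r and Il2rb differed in opposite directions between the CD8 gates. The 0% rests on 0 Il2rb UMIs in control replicate 2. The part of T cell RNA in the macrophage level was not tested. Mature dendritic cells held a higher pooled Il7r level, 74.1 CPM (95% Poisson interval 45.9 to 113, counting error only) from 21 UMIs in 8 of 23 barcodes.

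Between the genotypes no Il7r difference passed the test. It was -0.34 ± 0.90 on the log2 scale in T cells (adjusted p = 0.898 by edgeR's quasi-likelihood test with Benjamini-Hochberg adjustment). The same edgeR test gave -0.50 ± 0.99 in CD8 T cells (adjusted p = 0.875) and 0.14 ± 0.44 in CD4 T cells (adjusted p = 0.939). Leaving out 1 library moved the T cell value between -1.45 and 1.49. The CD8 value then ran from -1.88 to 1.48 and the CD4 value from -0.36 to 0.92. In monocytes and macrophages the difference was 0.80 ± 0.27 (adjusted p = 0.177 by edgeR). It turned to -0.28 under a gate of at least 3 markers and none of an unrelated class, 1 lymphatic endothelial marker being allowed. The level in the naive or memory CD8 gate ranged from 496 to 885 CPM over both genotypes, whereas the level of all CD8 T cells ranged from 47.4 to 359 CPM. An Il7r UMI was found in 12.7 and 68.6% of T cell barcodes in control and 44.9, 13.9 and 15.9% in disease libraries. The UMIs per barcode with at least 1 were 2.97 and 2.88 in control and 3.58, 2.86 and 3.25 in disease libraries, so that the libraries differed more in the share of barcodes with a UMI than in the UMIs per such barcode. After thinning to 1000 UMIs the share averaged 19.4% in control and 12.3% in disease (p = 0.6 by a two-sided exact permutation test, adjusted p = 0.7 over 14 shares).

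Il2rb, the signalling chain shared by the interleukin-2 and interleukin-15 receptors, showed the reverse order among T cells. NK cells stood highest, at 1340 and 1421 CPM in control and 1349, 1912 and 1989 CPM in disease libraries. Effector CD8 T cells followed at 916 and 649 CPM in control and 749, 1378 and 1217 CPM in disease libraries, and NK cells lay above them in every library. NK cells exceeded effector CD8 T cells by 0.72 ± 0.14 on the log2 scale (adjusted p = 0.00047 by edgeR's quasi-likelihood test with Benjamini-Hochberg adjustment, 19% of genes passing). Naive or memory CD8 T cells held 71.8 and 176 CPM in control and 61.9, 196 and 162 CPM in disease libraries, a difference from effector CD8 T cells of -2.35 ± 0.20 (adjusted p = 7.9e-10 by edgeR). CD4 T cells held 490 and 164 CPM in control and 258, 583 and 559 CPM in disease libraries. CD8 exceeded CD4 T cells by 1.02 ± 0.12 (adjusted p = 2.9e-05 by edgeR). ILC2 held 268 to 364 CPM, and B cells 0 to 13.0 CPM. T cells held 82.1% of all Il2rb UMIs.

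**Figure D3:**
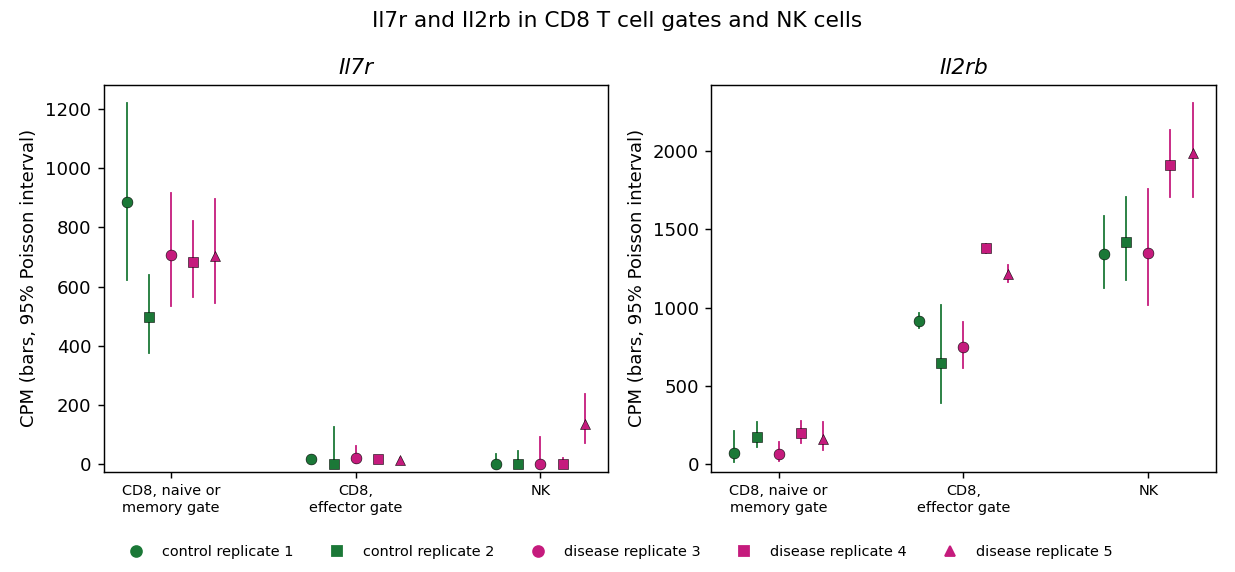
Il7r (left) and Il2rb (right) in CPM on linear axes in the naive or memory gate of CD8 T cells, the effector gate and NK cells, 1 point per library with 95% Poisson intervals that cover counting error only. Il7r lies at 496 to 885 CPM in the first gate and at 0 to 21.4 CPM in the second, while Il2rb rises from at most 196 CPM in the first gate to at least 649 CPM in the second.

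Il2rb did not differ between the genotypes beyond the spread of the libraries. T cells stood at 832 and 258 CPM in control and at 424, 1219 and 1074 CPM in disease libraries, control replicate 1 lying among the disease values. The difference was 0.74 ± 0.56 on the log2 scale (adjusted p = 0.597 by edgeR's quasi-likelihood test with Benjamini-Hochberg adjustment). Leaving out 1 library moved it between 0.14 and 1.75. The share of T cell barcodes with an Il2rb UMI after thinning averaged 31.7% in control and 50.9% in disease (exact permutation p = 0.4, adjusted p = 0.56 over 14 shares), and the difference ran from 1.57 to 36.8 percentage points when 1 library was left out. Over all retained barcodes the Il2rb difference was 1.93 ± 1.45 (adjusted p = 0.542 by edgeR), a value that holds the 24.4% T cell share of disease replicate 4. It was 3.75, 1.09 and 0.50 without control replicate 1, control replicate 2 and disease replicate 4. The low Il2rb level of blood endothelial cells, 5.67 and 0.245 CPM in control and 0.264, 14.7 and 2.86 CPM in disease libraries, ranked the 5 libraries in the order of the summed T cell markers in the same barcodes. The part of T cell RNA in it was not tested.

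Il2ra, the chain that gives the interleukin-2 receptor its high affinity, was highest in ILC2 and sparse elsewhere. ILC2 stood at 361 and 358 CPM in control and 366, 359 and 416 CPM in disease libraries, and 38 of the 56 barcodes had a UMI. T cells stood at 17.0 and 8.06 CPM in control and 15.9, 11.4 and 20.5 CPM in disease libraries, and held 41.6% of 534 UMIs. ILC2 exceeded T cells by 4.42 ± 0.37 on the log2 scale (adjusted p = 5.8e-14 by edgeR's quasi-likelihood test with Benjamini-Hochberg adjustment). T cells and NK cells, at 4 UMIs in NK cells, differed by 1.15 ± 0.75 (adjusted p = 0.33 by edgeR). Among CD4 T cells with Foxp3, the gene that defines regulatory T cells, 5 of 13 barcodes had an Il2ra UMI, all in disease replicates 4 and 5, against 6 of 252 CD4 T cells without Foxp3, at median depths of 5290 and 3182 UMIs. With 1 to 4 Foxp3-positive barcodes a library, no test was made. Mural cells, the contractile cells around small vessels, gave 15 Il2ra UMIs in 13 of 146 barcodes, at 70.1 and 7.86 CPM in control and 0, 21.6 and 23.8 CPM in disease libraries. They exceeded fibroblasts by 6.25 ± 0.72 (adjusted p = 2.6e-10 by edgeR, 42.1% of genes passing), and by 4.94 (adjusted p = 0.0012) without control replicate 1, which held 11 of the 15 UMIs. The genotype difference in T cells was 0.17 ± 0.47 (adjusted p = 0.903 by edgeR), with overlapping groups. It ran from -0.10 without control replicate 2 to 0.88 without control replicate 1, and was -0.11 with the GC trend removed.

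Il2rg, the common gamma chain, had the most UMIs of the 7 genes, 27750, and its level was not separated between T, B and NK cells by the test. T cells stood at 490 and 524 CPM in control and 531, 632 and 632 CPM in disease libraries. B cells stood at 482 and 501 CPM in control and 556, 649 and 558 CPM in disease libraries. NK cells stood at 617 and 772 CPM in control and 515, 941 and 921 CPM in disease libraries. The T and B cell levels differed by -0.05 ± 0.25 on the log2 scale (adjusted p = 0.92 by edgeR's quasi-likelihood test with Benjamini-Hochberg adjustment). In the edgeR model of 11 classes T cells differed from NK cells by -0.06 ± 0.30 (adjusted p = 0.92, 15.8% of genes passing). NK cells differed from B cells by -0.06 ± 0.30 in that edgeR model (adjusted p = 0.93, 29.1% of genes passing). These fitted values lay near 0, although the CPM of NK cells exceeded those of T and B cells in every library but disease replicate 3. The reason was not tested. Against the effector gate of CD8 T cells alone NK cells were higher by 0.41 ± 0.14 (adjusted p = 0.036 by edgeR), and without control replicate 1, disease replicate 4 or disease replicate 5 that adjusted p was 0.077, 0.24 or 0.16. ILC2 lay highest, at 894 to 1339 CPM, above T cells by 0.88 ± 0.30 (adjusted p = 0.027 by edgeR). Without control replicate 1, or disease replicate 3, 4 or 5, that adjusted p was 0.11, 0.11, 0.052 or 0.10. The Il2rg difference between naive or memory and effector CD8 T cells was 0.20 ± 0.15 (adjusted p = 0.31 by edgeR), with levels of 372 to 622 CPM in the first gate and 475 to 652 CPM in the second. A UMI of Il2rb and a UMI of Il2rg were found together in 111 of 125 NK cells (88.8%) and 2066 of 2764 CD8 T cells (74.7%).

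Outside lymphocytes Il2rg separated endothelial cells from fibroblasts. Blood endothelial cells stood at 136 and 122 CPM in control and 146, 195 and 148 CPM in disease libraries. Fibroblasts stood at 0.680 to 5.17 CPM, and blood endothelial cells exceeded them by 5.91 ± 0.32 on the log2 scale (adjusted p = 1.7e-18 by edgeR's quasi-likelihood test with Benjamini-Hochberg adjustment). Monocytes and macrophages stood at 118 and 46.6 CPM in control and at 70.3, 376 and 198 CPM in disease libraries, and differed from blood endothelial cells by 0.35 ± 0.25 (adjusted p = 0.20 by edgeR). The Il2rb level of each class, multiplied by the ratio of Il2rg to Il2rb in T cells of the same library, came to 0.226 to 3.92% of the Il2rg level in blood endothelial cells, 0 to 3.94% in monocytes and macrophages and 40.6 to 82.7% in fibroblasts. This takes the ratio as fixed and leaves out RNA of B cells, which hold Il2rg and little Il2rb. The part of T or B cell RNA in these levels was not tested.

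The Il2rg group means of monocytes and macrophages were 82.4 ± 50.7 CPM (SD, n = 2) in control and 215 ± 153 CPM (SD, n = 3) in disease, a log2 difference of 1.5 ± 0.76 (adjusted p = 0.345 by edgeR's quasi-likelihood test with Benjamini-Hochberg adjustment). The groups overlapped, since disease replicate 3 lay under control replicate 1. The difference was 2.42, 0.98 and 0.70 without control replicate 1, control replicate 2 and disease replicate 4. With every gene of at least 1 count in the fit the difference was 1.52 (adjusted p = 0.0011 by edgeR), and under the other alternatives the adjusted p was 0.090 to 0.810. In the same barcodes the 6 effector T cell genes summed to 144 and 3.6 CPM in control and 176, 1152 and 173 CPM in disease libraries, and their part in the result was not tested. The share of these barcodes with an Il2rg UMI was 34.1 and 16.9% in control and 24.2, 60.5 and 36.9% in disease libraries, and 7.66, 4.69, 4.16, 22.2 and 12.8% after thinning. In T cells all 3 disease values of Il2rg lay above both control values, with a difference of 0.29 ± 0.26 (adjusted p = 0.652 by edgeR; 0.14 without control replicate 1). It turned to -0.14 with the GC trend removed, and the difference in the unthinned share of barcodes with a UMI was -3.27 percentage points. In B cells the groups were also apart, with 0.35 ± 0.15 (adjusted p = 0.193 by edgeR). The thinned share of B cells with an Il2rg UMI averaged 39.8% in control and 42.8% in disease (exact permutation p = 0.4, adjusted p = 0.56). The thinned share of T cells averaged 37.4 and 43.6% (exact permutation p = 0.3, adjusted p = 0.525). In both classes the shares of the groups overlapped.

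No member passed the genotype test in any class. The 8 classes with at least 20 barcodes in every library included T cells and also their CD8 and CD4 subsets. Values of these nested classes share barcodes and are not independent. Of 30 member values in the 8 classes, 0 passed edgeR's quasi-likelihood test with Benjamini-Hochberg adjustment. An unadjusted edgeR p under 0.05 was found for 4 (13.3%), beside 21% of all gene values in these classes. DESeq2 also called 0, with 3 (10%) under the unadjusted threshold, beside 17.7% of all gene values. The number of members tested was 5 of 7 in T cells, CD8 T cells, blood endothelial cells, fibroblasts, and monocytes and macrophages, 3 in CD4 T cells, 1 in B cells and in neutrophils, 2 in NK cells and 7 over all barcodes. The share of all genes that passed was 4.87% in T cells, 4.54% in CD8 T cells, 4.83% in CD4 T cells, 9.5% in B cells, 6.87% in monocytes and macrophages, 3.4% in neutrophils, 12.2% in blood endothelial cells, 12.8% in fibroblasts, 6.8% in NK cells and 6.51% over all barcodes. Most of these were lower in disease, 1463 of 1507 in blood endothelial cells and 1622 of 1663 in fibroblasts. The disease and control values did not overlap for 3 of 5 members in blood endothelial cells, where 50.1% of all genes did likewise, and for 3 of 5 in fibroblasts, against 50.8%. The count was 1 of 5 each in monocytes and macrophages, T cells and CD8 T cells, against 36.5, 31.8 and 30.9% of all genes. It was 1 of 1 in B cells (40.4% of all genes) and 4 of 7 over all barcodes (36.8%). In CD4 T cells, neutrophils and NK cells it was 0 of 3, 0 of 1 and 0 of 2. The median log2 difference over the members tested was 0.29 in blood endothelial cells, 0.63 in fibroblasts, 0.79 in monocytes and macrophages and 0.29 in T cells, beside medians over all genes of -0.00, -0.01, 0.01 and 0.06. No test of whether the disease effect on a member differed between 2 classes passed, by edgeR's class by group term with Benjamini-Hochberg adjustment. The share of all genes that passed was 0.0149% for monocytes and macrophages against blood endothelial cells, 0.0723% against fibroblasts, 0.427% for blood endothelial cells against fibroblasts and 0.0455% for T against NK cells. The smallest unadjusted p among the pairs without NK cells was that of Il2rg between monocytes and macrophages and fibroblasts, 0.84 ± 0.34 (adjusted p = 0.810 by edgeR). For T against NK cells it was that of Il7r (adjusted p = 0.351 by edgeR), whose NK cell UMIs all lay in disease replicate 5.

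**Figure D4:**
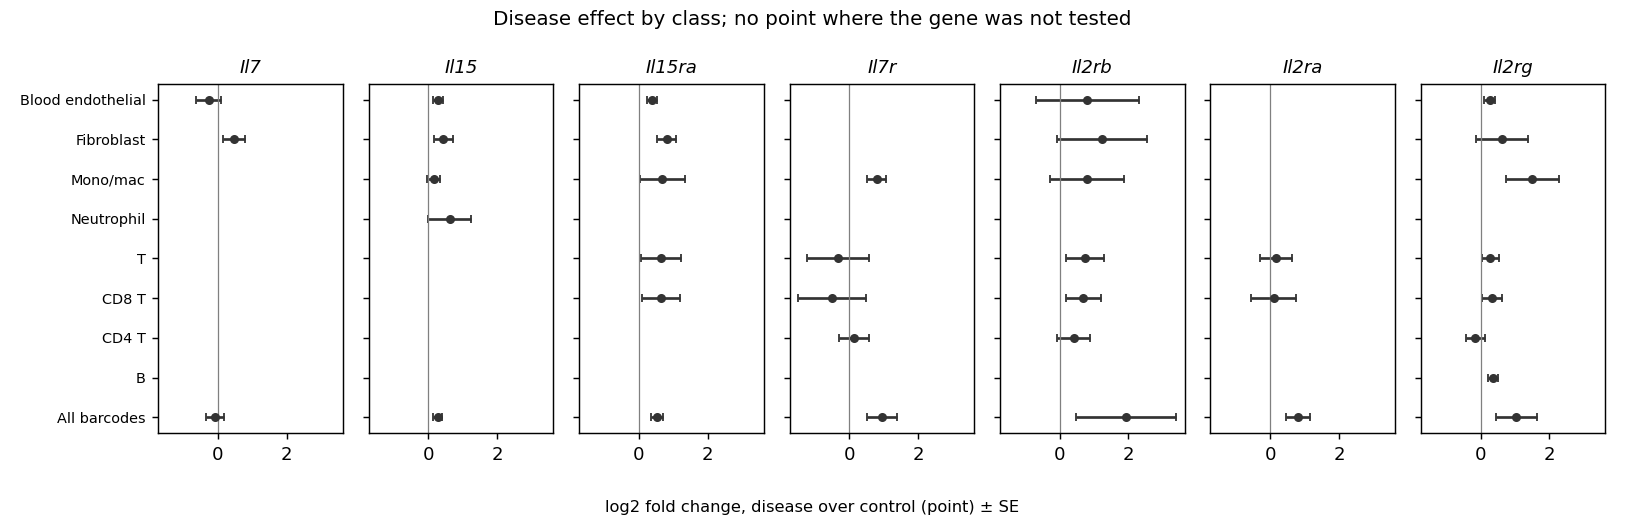
Difference between disease and control (log2 fold change, point, ± SE, bar) of each gene in 8 classes and over all barcodes, with a line at 0. No point is drawn where a gene was not tested, and no adjusted p fell under 0.05.

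Of the other 28 genes of the pathway, 8 fell in disease in at least 1 of the 8 classes. None rose, by edgeR or by DESeq2, with 0 and 1 values higher at an unadjusted p under 0.05. Calls over all genes had the same direction, 464 of 466 being lower in T cells and 736 of 740 in monocytes and macrophages, so that nothing is read from it about the pathway. Among the 22 or 23 tested, 4 fell in T cells, 3 in monocytes and macrophages, 5 in blood endothelial cells and 4 in fibroblasts by edgeR's quasi-likelihood test with Benjamini-Hochberg adjustment, and 6 of 16 fell in B cells. The share of all genes that passed was 4.87, 6.87, 12.2, 12.8 and 9.5% in these classes. Over the 8 classes 27 values fell, 16 after removal of the GC trend, and 13, 11 and 4 without control replicate 1, control replicate 2 and disease replicate 5. A rise passed for 1 value with every gene of at least 1 count, without control replicate 2 or without disease replicate 3. Crlf2, which pairs with Il7r to form the receptor of the cytokine Tslp, fell in 6 classes, by log2 differences of -4.48 to -2.63. In T cells it stood at 131 and 43.0 CPM in control and 5.97, 2.72 and 5.58 CPM in disease libraries, without overlap. The kinase gene Jak1, whose product binds Il7r and Il2rb, fell in 5 classes (-1.82 to -0.74). Socs1, a feedback inhibitor of these kinases, fell in 5 (-3.91 to -1.46), as did Pim2, a survival kinase gene induced by STAT5 (-3.83 to -1.60). T cells and their CD8 subset are both among the classes of Crlf2, Socs1 and Pim2. T cells and their CD4 subset are both among those of Jak1 and Pim2, so these counts exceed the number of separate cell types. Socs3 fell in 3 classes, and Socs2, Stat3 and Pim1 in 1 each. These 8 genes had a GC content of 59.3 to 73.7% in the first 300 bases of the transcript, the other 20 had 45.7 to 75.3% and the 7 members 45.0 to 55.2%. Across genes the log2 difference fell with that GC content in every class, with a Spearman rho of -0.24 to -0.46. Of the other ligands, Tslp gave 1533 UMIs, 948 of them in fibroblasts, Il4 40, Il2 24, Il21 10 and Il9 none.

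The genes most like each member over 30 points (6 classes in 5 libraries, which share libraries and depth) were found by Pearson correlation of log2(CPM + 1) among 12673 genes, as a description. Il2rb was most like Nkg7 (r = 0.96), Tigit (0.95) and Trgv2 (0.95). Il15 was most like Dennd5a (0.96), Ifitm2 (0.96) and Tcn2 (0.94). Il7r was most like Txk (0.92), Crtam (0.86) and Cd7 (0.85), and Il15ra most like Cd151 (0.92), Yod1 (0.89) and Mrps14 (0.89). Genes like Il2ra included Cd6 (0.89), which is a gate marker, and Asf1b (0.87). Il2rg was most like Stmn1 (0.93), Mfng (0.88) and Ripk3 (0.87). The genes nearest to Il7, Tet1, Rhox5 and Ptk6 (0.92 each), rest on a highest class mean of 2.22 CPM. Among the members themselves, Il7r and Il2ra had the highest correlation (0.81), followed by Il7 and Il15ra (0.72), while Il15 and Il2rg had the lowest (-0.69). The pair with Il7 has the same limit of 2.22 CPM, since lymphatic endothelial cells were not among the 6 classes.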

How the data were processed

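UMI counts per gene and barcode were used as the authors deposited them, 1 matrix per library, made with version 3.1.0 of the software named in the matrix headers per the file headers. The submitters' processing notes name Cell Ranger 3, Seurat 3 and the builds GRCh38 and mm10, and the filters before deposit were not given in the sources used here. Barcodes needed at least 500 UMIs and 200 genes and no more than 10% mitochondrial UMIs. Scrublet (scanpy 1.11.5) removed the 2474 highest-scoring barcodes at an expected doublet rate of 0.8% per 1000 barcodes. Its automatic threshold found 4 doublets in control replicate 2 and was kept as an alternative. Free RNA was not removed, since no deposited barcode had fewer than 500 UMIs.

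Barcodes were gated by marker UMIs, and counts were summed per library and class. All genes were fitted with edgeR 4.0.16 in R 4.3.3 (TMM, filterByExpr, glmQLFit, glmQLFTest, Benjamini-Hochberg adjustment, threshold 0.05), 2 control against 3 disease libraries in classes with at least 20 barcodes in every library. Contrasts between classes had the library as a block. The SE divides each log2 difference by the root of its F value. NK, lymphatic endothelial, ILC2, mural and CD8 subset fits needed at least 5 barcodes a library, a limit chosen after seeing the data. The code was tested on simulated data. Alternatives were DESeq2 1.42.0, plain library totals, every gene with at least 1 count, removal of the GC trend, 25% mitochondrial UMIs, doublets kept, a stricter gate and leaving out each library. Shares of barcodes were taken after thinning to 1000 UMIs.

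The 7 genes, the pathway list and the markers were chosen with earlier results of these data known. Named genes are the 7 members, the 28 pathway genes and, for each member, the 3 genes most correlated with it among those that reach a mean of 5 CPM in some class. Items of the gate panels and of the most correlated genes that are not named in the text are not reported here.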

Additional observations from a re-analysis of the deposited data

How the results depend on the processing

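No paired analysis was possible because the groups share no replicate number. Of 274 recomputed genotype effects of members, leaving a library out aside, 265 kept their direction and their side of the threshold. Removing the GC trend turned the Il2ra and Il2rg differences of T cells to -0.11 and -0.14, those of CD8 T cells to -0.17 and -0.16, and Il7r of CD4 T cells to -0.17. With every gene of at least 1 count, Il2rg of CD4 T cells turned to 0.0127, and 1 member passed, Il2rg of monocytes and macrophages. The stricter gate turned Il7r and Il15 of monocytes and macrophages to -0.28 and -0.10. The cause was not tested.

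Leaving out 1 library turned Il15 of neutrophils (-0.17 to 1.75), Il15ra of monocytes and macrophages (-0.0461 to 1.05), Il2ra of T (-0.10 to 0.88) and CD8 T cells (-0.22 to 7.93), Il2rb of CD4 T cells (-0.0228 to 1.47), blood endothelial cells (-0.96 to 4.34) and fibroblasts (-0.59 to 4.5), Il2rg of fibroblasts (-0.18 to 2.01), Il7 of blood endothelial cells (-0.57 to 0.10) and Il7r of T (-1.45 to 1.49), CD8 T (-1.88 to 1.48) and CD4 T cells (-0.36 to 0.92), and the Il2rg contrast of mural cells with fibroblasts (-5.26 to 3.94), whose mural UMIs all lay in control replicate 1. Without a library the member count stayed at 0 in each genotype fit, and 57 to 61 class contrasts passed.

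The number of genes that passed moved by over 1.5 times with every gene of at least 1 count (920 in T cells, 810 in CD8 T cells, 203 in CD4 T cells, 990 in B cells, 1491 in monocytes and macrophages, 47 in neutrophils), GC trend removed (247, 218, 41 in the T cell gates, 17 in neutrophils, 671 over all barcodes), the stricter gate (304 in T cells, 194 in B cells, 744 in fibroblasts), DESeq2 (1720 over all barcodes) and doublets kept or the automatic threshold (117 in neutrophils). Without 1 library it ranged over 0 to 394 in T cells, 3 to 410 in CD8 T cells, 11 to 131 in CD4 T cells, 49 to 471 in B cells, 239 to 973 in monocytes and macrophages, 5 to 68 in neutrophils, 779 to 1446 in blood endothelial cells, 787 to 1748 in fibroblasts and 125 to 1232 over all barcodes.

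Share differences turned for Il15 of monocytes and macrophages (percentage points: 1.30 unthinned, 0.302 at 2000 UMIs, 0.00671 at 25% mitochondrial UMIs, 1.06 with the stricter gate), Il15ra there (-0.130 at 2000 UMIs) and Il2rg of T cells (-3.27 unthinned). Without 1 library the shares ranged over -0.847 to 0.125 (Il15) and -0.0473 to 0.704 (Il15ra) in monocytes and macrophages, and -18.3 to 4.18 for Il7r in T cells. Genotype fits with the stricter gate were not run over all barcodes, nor for CD8 and CD4 T cells and neutrophils. These classes then had under 20 barcodes in a library. The class contrasts with that gate did include them. Of the class contrasts recomputed with all libraries, 295 kept their call and 16 no longer passed. Rare classes limit precision: Il7 of lymphatic endothelial cells rests on 53 UMIs and Il2ra of ILC2 on 82.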

Other observations

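The Il15ra level of mature dendritic cells, which carry antigen to lymph nodes, rests on 39 UMIs. A UMI was found in 13 of 23 barcodes, whose median depth of 11331 UMIs was high. Il15 stood there at 45.9 CPM and Il2rg at 399 CPM, pooled over libraries that held 1 to 9 such barcodes each. The other dendritic cells, 93 barcodes, stood at 6.12 CPM for Il15ra and 52.4 CPM for Il2rg. No test was made, since both control libraries held under 5 mature dendritic barcodes.

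Cycling CD8 T cells, with at least 2 UMIs over the cell cycle genes, held 49 Il2ra UMIs in 22 of 227 barcodes, a pooled 24.5 CPM at a median depth of 7476 UMIs.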
